A study of Mus musculus with 19 samples.

Results

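The Shh promoter was followed as a viewpoint through 9 capture Hi-C maps of its locus on mouse chromosome 5 (build mm9). The viewpoint was the pair of 10 kb bins at chr5:28780001-28800000, which overlap the promoter interval that the labels give (28789001 to 28799000). Its partners were the 97 bins below it, up to position 28770000, and 69 bins above it, chr5:28810001-29500000. Of the 280 bins of each map, these 97 and 69 were chosen by position, and all of them were kept. Distances were counted from the upper viewpoint bin, which ends at 28800000 and holds 9000 bases of the promoter interval. The 69 upper bins lie 20 to 700 kb away and are called the desert. The 97 lower bins lie 30 to 990 kb away.

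Shh encodes Sonic hedgehog, a secreted signal that patterns the limb bud, the neural tube and many other organs. It sits at the edge of a large gene desert that holds many of its long-range enhancers, and its limb enhancer, the ZRS, lies beyond the desert in an intron of Lmbr1. CTCF is a DNA-binding protein that stops the extrusion of chromatin loops by cohesin and so marks many loop anchors and domain borders. In capture Hi-C, DNA ends that lie close in fixed nuclei are ligated, enriched for 1 region and sequenced as pairs, so that a pair of bins seen often was often close. In a gene table of a later build (GRCm38.p6), the protein-coding genes next to Shh on the lower side are, going outward, Rbm33, an RNA-binding protein gene, Cnpy1, En2, a homeobox gene of the midbrain and hindbrain, and Insig1, a regulator of sterol synthesis. On the desert side the first is Rnf32 and the next Lmbr1. No gene is placed at a bin here, because that table and the maps are of different builds.

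The 19 samples were merged by the authors into 9 maps. In limb buds at E10.5 (a midgestation embryo stage) there were 5 mutant groups, spelled in the labels as ΔCTCF i4i5, ΔCTCF i4i5ZRS, ΔCTCF i4i5ZRSreg, ΔZRSreg and Lmbr1Δprom/Δprom, and in E10.5 midbrain 1 mutant group, ΔCTCF i4i5ZRS. The labels give CTCF deletions for the first 3 and the midbrain mutant, and by its name the last limb mutant lacks the promoter of Lmbr1. The labels do not spell out i4, i5 or ZRSreg or give the extent of any deletion. The unmutated groups were ES (embryonic stem) cells, E10.5 midbrain and E10.5 limb buds. Of the ES cell samples, 1 also carries the stage label E10.5, which was read as a copied label. Wild type limb had 3 samples, 2 of which share a library number, and each other group had 2. The stated strain was G4, a mouse ES cell line, for all mutants and for the ES cells, and C57BL/6 for wild type limb and midbrain. Per the series' design the wild types were biological replicates and the mutants technical ones. With 1 merged map a group, no spread between replicates and no p-value could be given. Midbrain and limb buds are mixtures of cells of which only part express Shh, so the maps average over both.

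Contact is given as observed over expected: each deposited value was set against the average of its own map for bins equally far apart. A value of 1 is the average pair at that distance. Whole contact counts could be recovered from the balanced values, from 1177173 contacts in limb i4i5 to 3218492 in ES cells. The viewpoint had 5895 to 15224 contacts with the desert and 4685 to 10163 with the lower side. A single desert bin rested on 10 contacts or more, and a single far lower bin on as few as 1. Intervals are 95% intervals for counting error alone, and they do not cover differences between embryos, libraries or strains. They are exact for the summed contacts and were scaled to the value given. A mean weights its bins equally, whatever their contacts, so for means over several bins the intervals are approximate and can be too narrow.

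Toward the desert, contact relative to distance climbed from stretch to stretch out to 600 kb in all 9 maps. In the stretch from 20 to 100 kb it was below average, between 0.530 in ES cells and 0.678 in limb Lmbr1Δprom. It was 1.02 from 110 to 200 kb in ES cells and below 1 there in the other maps. From 210 to 300 kb it lay between 0.897 and 1.21, above 1 in limb Lmbr1Δprom, midbrain i4i5ZRS, ES cells and wild type midbrain. From 510 to 600 kb it ran from 2.06 in limb i4i5ZRSreg to 2.92 in midbrain i4i5ZRS, and from 610 to 700 kb it ran from 1.80 in limb i4i5 to 2.87 in ES cells. The last stretch was lower than the one before it in all maps but that of ES cells, as in wild type limb with 2.17 after 2.34. The promoter thus met the far desert more often, for its distance, than the near desert in every tissue and mutant measured. Other viewpoints were not set beside this climb.

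One desert bin stood above all others in each of the 9 maps, chr5:29360001-29370000, which lies 570 kb from the promoter. Its observed over expected was 3.53 in limb i4i5, 3.69 in limb i4i5ZRSreg, 4.87 in limb ZRSreg, 4.66 in limb i4i5ZRS, 4.67 in limb Lmbr1Δprom, 5.18 in midbrain i4i5ZRS, 4.50 in ES cells, 4.45 in wild type midbrain and 3.77 in wild type limb. The level was lowest in limb i4i5, limb i4i5ZRSreg and wild type limb, whose intervals overlap one another, and highest in midbrain i4i5ZRS. The bin before it, at 560 kb, was also raised, from 2.32 in limb i4i5 to 3.82 in midbrain i4i5ZRS. The bin after it, at 580 kb, dropped to between 1.65 in limb i4i5 and 3.58 in midbrain i4i5ZRS. The 580 kb bin was lower than the 560 kb bin in each of the 9 maps, but only slightly in midbrain i4i5ZRS. The other desert bins listed as highest in a map were weaker and less fixed in place. They lay at 600 to 610 kb, 640 to 660 kb or 670 to 700 kb, and at 540 kb in limb Lmbr1Δprom. That list ranks bins by level and was not a search for local maxima. Nearer the promoter, the 440 kb bin was above both its neighbours in every map but limb ZRSreg. Wild type limb had 2.16 there, with 1.30 at 430 kb and 1.35 at 450 kb. In limb i4i5ZRSreg the margin was slight, 1.49 against 1.48 at 450 kb.

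The lower side behaved otherwise. Contact was low near the promoter, 0.408 to 0.516 from 30 to 100 kb and 0.490 to 0.641 from 110 to 200 kb. It then formed a hump, 0.671 to 1.55 from 210 to 300 kb and 0.759 to 1.99 from 310 to 400 kb, and fell back to between 0.635 and 0.794 from 410 to 500 kb. In both stretches from 210 to 400 kb midbrain i4i5ZRS was lowest and ES cells highest. A broad low rise followed, 0.619 to 0.857 from 510 to 600 kb, 0.840 to 1.02 from 610 to 700 kb and 0.757 to 0.915 from 710 to 800 kb. From 810 to 900 kb contact was 0.389 to 0.704 and from 910 to 990 kb 0.399 to 0.539.

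The hump had its crest at chr5:28490001-28500000, 300 kb below the promoter, the highest lower bin in each limb map and in ES cells. Observed over expected there was 2.70 in limb i4i5, 2.58 in limb i4i5ZRSreg, 2.53 in limb ZRSreg, 2.35 in limb i4i5ZRS, 1.87 in limb Lmbr1Δprom, 1.32 in midbrain i4i5ZRS, 5.12 in ES cells, 1.29 in wild type midbrain and 1.90 in wild type limb. ES cells stood above every other map beyond the intervals, both midbrain maps were lowest, and limb lay between. In ES cells this lower bin was above the 570 kb desert bin for its distance (5.12, 4.75 to 5.51, against 4.50, 3.98 to 5.07), with intervals that overlap, and in each other map it was below. In both midbrain maps a bin farther out was slightly higher than the crest, 1.37 at 660 kb in i4i5ZRS and 1.31 at 640 kb in wild type, on 30 and 66 contacts.

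A second crest lay at chr5:28440001-28450000, 350 kb below the promoter. It reached 1.89 in limb i4i5, 2.11 in limb i4i5ZRSreg, 1.86 in limb ZRSreg, 1.45 in limb i4i5ZRS, 1.48 in limb Lmbr1Δprom, 1.17 in midbrain i4i5ZRS, 3.82 in ES cells, 1.18 in wild type midbrain and 1.56 in wild type limb. As at the first crest, ES cells were on top and both midbrain maps at the bottom, while limb i4i5ZRS lay below wild type limb here and above it there. Another rise, at 260 kb, was among the 3 highest lower bins in limb i4i5 (1.54), limb i4i5ZRSreg (1.76), limb ZRSreg (1.77) and wild type limb (1.45), whereas ES cells had 1.33 there.

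**Figure D1:**
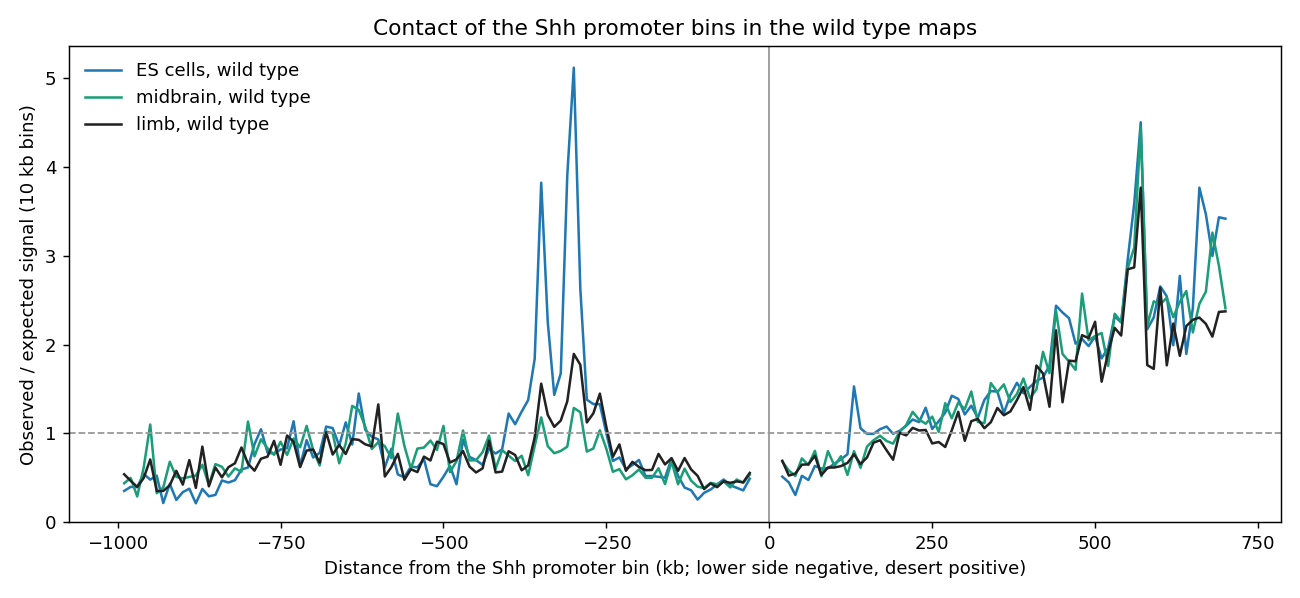
Observed over expected signal of the Shh promoter bins with each partner bin (vertical axis) against distance from the promoter bin in kb (horizontal axis, lower side negative), with 1 line for each wild type map: ES cells, midbrain and limb. The dashed line is the average for the distance. All 3 lines climb through the desert to a peak at 570 kb, and on the lower side the ES cell line reaches 5.12 at 300 kb where midbrain has 1.29 and limb 1.90.

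**Figure D2:**
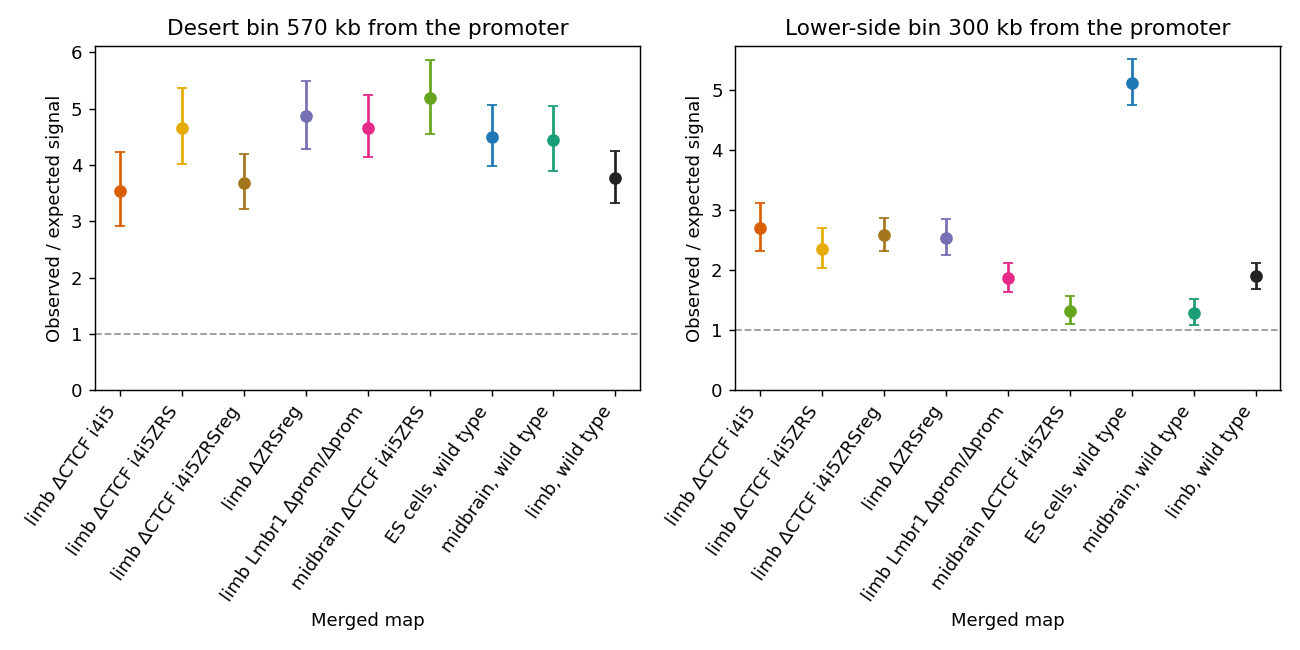
Observed over expected signal (vertical axis) at the desert bin 570 kb above and the lower bin 300 kb below the promoter in each of the 9 merged maps (horizontal axis), with 95% counting intervals. The desert bin lies between 3.53 and 5.18 in every map, while the lower bin runs from 1.29 in wild type midbrain to 5.12 in ES cells.

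The order of the desert bins was much alike from map to map, and that of the lower bins less so. Spearman correlations of the 69 desert bins between the 36 pairs of maps had a median of 0.947 and ran from 0.925 to 0.974. For the 97 lower bins the median was 0.727 and the range 0.564 to 0.828. These are correlations over bins of the same map pairs, which share a common distance trend and, on the lower side, fewer contacts a bin, so they are given as a description.

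Averaged over all bins, the promoter favoured the desert in every map. Mean observed over expected with the desert was 1.24 in limb i4i5, 1.24 in limb i4i5ZRSreg, 1.44 in limb ZRSreg, 1.42 in limb i4i5ZRS, 1.51 in limb Lmbr1Δprom, 1.67 in midbrain i4i5ZRS, 1.69 in ES cells, 1.62 in wild type midbrain and 1.44 in wild type limb. With the lower side it was 0.796 in limb i4i5, 0.803 in limb i4i5ZRSreg, 0.799 in limb ZRSreg, 0.742 in limb i4i5ZRS, 0.795 in limb Lmbr1Δprom, 0.659 in midbrain i4i5ZRS, 0.853 in ES cells, 0.726 in wild type midbrain and 0.742 in wild type limb. In every map the desert mean was above 1 and the lower-side mean below 1.

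As a log2 ratio of desert over lower side, the balance was 1.35 (1.30 to 1.39) in midbrain i4i5ZRS and 1.16 (1.11 to 1.20) in wild type midbrain, the 2 highest. ES cells had 0.99, wild type limb 0.95, limb i4i5ZRS 0.93, limb Lmbr1Δprom 0.92 and limb ZRSreg 0.85. The intervals of ES cells, wild type limb, limb i4i5ZRS and limb Lmbr1Δprom all overlap one another. That of limb ZRSreg overlaps those of limb i4i5ZRS and limb Lmbr1Δprom. Limb i4i5 (0.64, 0.58 to 0.70) and limb i4i5ZRSreg (0.63, 0.59 to 0.67) were lowest and did not differ beyond their intervals. The median balance over the 111 pairs of neighbouring bins that could be placed in the same way was 0.0060 to 0.25, and the highest of them had 0.98 to 1.70, above Shh in every map. From 6 of the 111 in midbrain i4i5ZRS to 24 in limb i4i5ZRSreg were above Shh. Over 30 to 700 kb on both sides the balance was 0.57 in limb i4i5, 0.55 in limb i4i5ZRSreg, 0.74 in limb ZRSreg, 0.85 in limb i4i5ZRS, 0.87 in limb Lmbr1Δprom, 1.33 in midbrain i4i5ZRS, 0.80 in ES cells, 1.12 in wild type midbrain and 0.87 in wild type limb. At these matched distances ES cells lay below wild type limb, so their place in the order depends on the distances taken. Without scaling by separation, over 30 to 700 kb on both sides, the balance stayed above 0 in all maps but was smaller, from 0.23 in limb i4i5ZRSreg to 0.93 in midbrain i4i5ZRS.

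**Figure D3:**
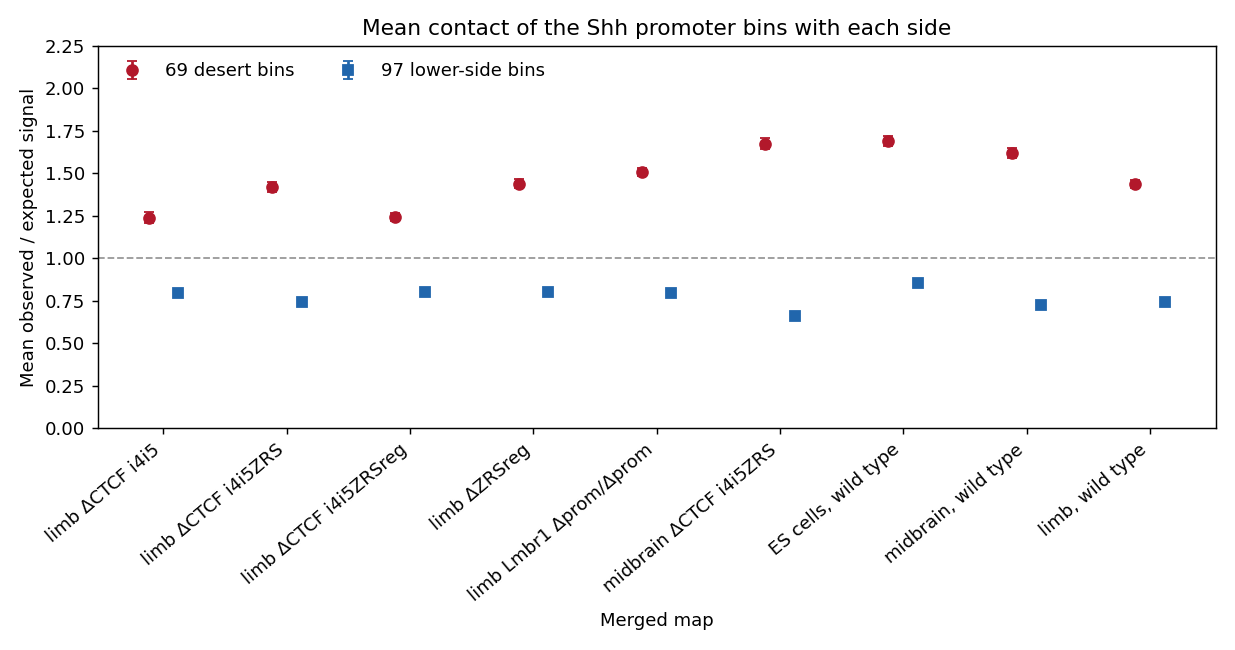
Mean observed over expected signal of the Shh promoter bins (vertical axis) with the 69 desert bins (circles) and the 97 lower bins (squares) in each merged map (horizontal axis), with 95% counting intervals, many of which are smaller than the symbols. Desert means lie between 1.24 and 1.69 and lower means between 0.659 and 0.853, so every map has the desert above 1 and the lower side below it.

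ES cells were set against wild type limb. The hump on the lower side was far stronger in ES cells. At 300 kb the values were 5.12 in ES cells and 1.90 in wild type limb, at 310 kb 3.91 and 1.36 (log2 ratio 1.52, 1.30 to 1.74), and at 350 kb 3.82 and 1.56 (log2 ratio 1.29, 1.03 to 1.56). Over the 12 bins from 250 to 360 kb, a block drawn after its values were seen, contact was 2.31 in ES cells and 1.32 in wild type limb, a fold of 1.75. Outside the hump the lower side went both ways. From 110 to 200 kb it was 0.500 in ES cells and 0.636 in wild type limb, with 1 of 10 bins higher, and from 810 to 900 kb it was 0.389 in ES cells and 0.601 in wild type limb, with 0 of 10 bins higher. From 610 to 700 kb, in contrast, ES cells were higher in 7 of 10 bins, with a log2 ratio over wild type limb of 0.23 (0.05 to 0.41). Among bins with 20 or more contacts in each map, the lowest ratio was at 110 kb, where ES cells had 0.255 and wild type limb 0.522.

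In the desert, ES cells had less contact close to the promoter and a higher mean in each stretch from 110 kb outward. The gain was not uniform over bins. From 410 to 500 kb only 5 of 10 bins were higher, and at 640 kb ES cells had 1.90 and wild type limb 2.21 (log2 ratio -0.22, -0.66 to 0.21). From 20 to 60 kb the mean was 0.454 in ES cells and 0.613 in wild type limb, a log2 ratio of -0.44 (-0.52 to -0.35). At 130 kb, chr5:28920001-28930000, ES cells had a local peak of 1.53 on 366 contacts, against 0.765 on 219 contacts in wild type limb, a log2 ratio of 1.00 (0.75 to 1.25). No other map exceeded 0.871 in that bin, the value of midbrain i4i5ZRS. At 450 kb the levels were 2.36 in ES cells and 1.35 in wild type limb. At the far end, from 660 to 700 kb, ES cells had 3.42 and wild type limb 2.27, with the ES cell level the highest of the 9 maps. That log2 ratio of 0.59 (0.43 to 0.74) was 0.10 when scaled to the promoter's own total, 0.40 without balancing and 0.44 when thinned to the shallowest map.

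Over whole sides, the log2 ratio of ES cells over wild type limb was 0.23 (0.20 to 0.27) for the desert and 0.20 (0.16 to 0.24) for the lower side, with 54 of 69 desert bins and 46 of 97 lower bins higher. Past 1.5-fold, 5 desert bins were higher and 1 lower, against 4.81% and 12.6% of all bin pairs at these separations. On the lower side 10 bins were higher and 15 lower, against 6.44% and 14.5%. The lower-side ratio rested on the hump, since without its 12 bins it was -0.029, an alternative chosen after seeing the data. Scaled to the promoter's own total, the desert ratio was -0.020. Strain moves with this comparison, G4 for the ES cells and C57BL/6 for the limb, and cannot be told apart from cell type.

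Wild type midbrain was set against wild type limb, 2 embryonic tissues of 1 strain. The lower hump was weaker in midbrain. From 210 to 300 kb contact was 0.819 in midbrain and 1.14 in limb, with 0 of 10 bins higher (log2 ratio -0.48, -0.58 to -0.37). From 110 to 200 kb it was 0.522 in midbrain and 0.636 in limb, again with 0 of 10 bins higher, and from 310 to 400 kb 0.805 in midbrain and 1.01 in limb, with 1 of 10 higher. From 30 to 100 kb the tissues were level, with 0.446 in midbrain and 0.447 in limb. Beyond the hump the sign turned, out to 800 kb. From 410 to 500 kb midbrain had 0.794 and limb 0.690, and log2 ratios of 0.16 to 0.25 held in all 4 stretches from 410 to 800 kb, with 6 to 8 of 10 bins higher in each and 3 of the 4 intervals above 0.

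In the desert, midbrain was higher than limb in all 7 stretches, and the interval lay above 0 in 6. The clearest stretch was 210 to 300 kb, where midbrain had 1.19 and limb 0.995 and 10 of 10 bins were higher. Single bins with the highest ratios were at 270 kb, with 1.34 in midbrain and 0.848 in limb, and at 680 kb, with 3.26 in midbrain and 2.09 in limb. Over the whole desert the log2 ratio was 0.17 (0.13 to 0.20), with 54 of 69 bins higher. Over the lower side it was -0.03 (-0.08 to 0.01). Past 1.5-fold, 2 desert bins were higher and 0 lower, against 3.27% and 4.92% of bin pairs in these maps, and 6 lower-side bins were higher and 2 lower, against 4.37% and 6.29%.

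The 5 mutant limbs were each set against wild type limb, to compare the structure of the locus with and without each change. All 5, like ES cells and midbrain above, share the wild type limb map, and all differ from it in strain as well, which cannot be told apart from the mutation in these comparisons. Limb ZRSreg and limb Lmbr1Δprom, also G4 and not labelled as lacking CTCF sites, were used as a second standard.

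In limb i4i5 the desert was met less often and the lower hump more often. Mean desert contact was 1.24 in limb i4i5 and 1.44 in wild type limb, a log2 ratio of -0.21 (-0.26 to -0.17), with 13 of 69 bins higher. The loss was spread over the desert: the 6 stretches from 110 kb outward had log2 ratios of -0.15 to -0.31 with all intervals below 0, while the stretch from 20 to 100 kb was level (0.625 in limb i4i5 and 0.620 in wild type limb). From 310 to 400 kb, 0 of 10 bins were higher. Among bins with 20 or more contacts in each map, the lowest ratios were at 500 kb, with 1.39 in limb i4i5 and 2.26 in wild type limb, and at 640 kb, with 1.43 in limb i4i5 and 2.21 in wild type limb. The highest were at 590 kb, with 2.11 in limb i4i5 and 1.73 in wild type limb, and at 510 kb, with 1.85 and 1.58. The intervals of these highest ratios held 0. Past 1.5-fold, 0 desert bins were higher and 3 lower, against 6.7% and 4.29% of bin pairs.

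On the lower side of limb i4i5, contact from 250 to 360 kb was 1.57 in limb i4i5 and 1.32 in wild type limb, a log2 ratio of 0.25 (0.16 to 0.34). Over the whole lower side the ratio was 0.10 (0.05 to 0.15), with 61 of 97 bins higher. Past 1.5-fold, 8 bins were higher and 5 lower, against 9.67% and 5.86%. With the 2 G4 limb maps as the standard, the desert ratio was -0.25, the lower-side ratio was -0.0026, and the ratio at 250 to 360 kb was 0.12. These 2 maps differ at the hump: the log2 ratio of limb i4i5 was -0.07 (-0.16 to 0.03) over limb ZRSreg and 0.33 (0.24 to 0.43) over limb Lmbr1Δprom, so against limb ZRSreg the hump was not raised. The i4i5 map was the shallowest of the 9.

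Limb i4i5ZRSreg also had less desert contact and more contact at the hump than wild type limb. Mean desert contact was 1.24 in limb i4i5ZRSreg and 1.44 in wild type limb, a log2 ratio of -0.21 (-0.24 to -0.17), with 11 of 69 bins higher. The 6 stretches from 110 kb outward all had intervals below 0, and the lowest ratio was from 410 to 500 kb, where limb i4i5ZRSreg had 1.41 and wild type limb 1.83. Past 1.5-fold, 0 desert bins were higher and 2 lower, against 4.41% and 2.17%. The lower block at 250 to 360 kb was 1.68 in limb i4i5ZRSreg and 1.32 in wild type limb, a log2 ratio of 0.35 (0.27 to 0.42), and all 10 bins from 310 to 400 kb were higher. Over the lower side the ratio was 0.11 (0.07 to 0.16), with 59 of 97 bins higher, 3 past 1.5-fold higher and 1 lower, against 7.02% and 3.33%. With the 2 G4 limb maps as the standard, the lower-side ratio was 0.011 and the ratio at 250 to 360 kb was 0.22.

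Limb i4i5ZRSreg was also set against limb ZRSreg, which has its strain and, in its label, the name ZRSreg without CTCF i4i5. The desert difference was as large there, 1.24 in i4i5ZRSreg and 1.44 in ZRSreg, a log2 ratio of -0.21 (-0.25 to -0.17), with 12 of 69 bins higher and 6 of 7 stretches with intervals below 0. Over the alternatives in processing this desert ratio ran from -0.26 to -0.074. The bins from 550 to 570 kb averaged 2.97 in i4i5ZRSreg and 3.56 in ZRSreg, and at 540 kb the values were 1.63 and 2.60 (log2 ratio -0.67, -0.95 to -0.40). The lower side was level, 0.803 in i4i5ZRSreg and 0.799 in ZRSreg, with 46 of 97 bins higher. At 250 to 360 kb the values were 1.68 in i4i5ZRSreg and 1.65 in ZRSreg (log2 ratio 0.03, -0.05 to 0.11). Past 1.5-fold, 0 desert bins were higher and 3 lower, against 5.4% and 2.21%, and 7 lower-side bins were higher and 4 lower, against 8.3% and 3.53%.

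Limb ZRSreg itself had a higher lower hump than wild type limb and a desert that was level on average but not stretch by stretch. Mean desert contact was 1.44 in both limb ZRSreg and wild type limb, a log2 ratio of 0.0022 (-0.03 to 0.04), with 33 of 69 bins higher, and -0.17 from counts without balancing. From 410 to 500 kb limb ZRSreg was lower, with 1.56 in limb ZRSreg and 1.83 in wild type limb (log2 ratio -0.23, -0.33 to -0.13). From 510 to 600 kb it was higher, with 2.57 in limb ZRSreg and 2.34 in wild type limb (log2 ratio 0.14, 0.04 to 0.23). By the same minimum of contacts the bin at 500 kb was lowest in ratio, 1.28 in limb ZRSreg and 2.26 in wild type limb. The same bin had the lowest desert ratio in limb i4i5, limb i4i5ZRSreg and limb Lmbr1Δprom, and wild type limb, the shared map, had the highest value of all 9 there. Contact at 250 to 360 kb was 1.65 in limb ZRSreg and 1.32 in wild type limb, a log2 ratio of 0.32 (0.24 to 0.40). Against limb Lmbr1Δprom, of the same strain, with 1.25, the log2 ratio was 0.40 (0.32 to 0.48). Over the whole lower side ZRSreg over wild type limb gave 0.11 (0.06 to 0.15), with 64 of 97 bins higher, but -0.047 from counts without balancing. Past 1.5-fold, 0 desert bins were higher and 1 lower, against 2.02% and 2.33%, and 2 lower-side bins were higher and 2 lower, against 3.34% and 4%.

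Averaged over 250 to 360 kb, limb Lmbr1Δprom differed little from wild type limb, with 1.25 in limb Lmbr1Δprom and 1.32 in wild type limb (log2 ratio -0.08, -0.16 to -0.0001). From 210 to 300 kb limb Lmbr1Δprom was lower, with a log2 ratio of -0.12 (-0.22 to -0.03) and 1 of 10 bins higher. From 310 to 400 kb its log2 ratio was 0.08 (-0.03 to 0.19). Its desert contact was 1.51 in limb Lmbr1Δprom and 1.44 in wild type limb, a log2 ratio of 0.07 (0.04 to 0.10), with 45 of 69 bins higher. The 4 stretches from 20 to 400 kb had log2 ratios of 0.11 to 0.17 with intervals above 0. At the far end, from 660 to 700 kb, contact was 2.59 in limb Lmbr1Δprom and 2.27 in wild type limb (log2 ratio 0.19, 0.03 to 0.34). On the lower side all 8 bins from 30 to 100 kb were higher, with a mean of 0.516 in limb Lmbr1Δprom and 0.447 in wild type limb, and the whole side had a log2 ratio of 0.10 (0.06 to 0.14). From 610 to 700 kb and from 710 to 800 kb the log2 ratios were 0.26 and 0.27, with intervals above 0. Past 1.5-fold, 0 desert bins moved either way, against 2.3% higher and 2.38% lower, and 6 lower-side bins were higher and 0 lower, against 3.58% and 3.65%. Without balancing the desert ratio was -0.0046, and scaled to the promoter's own total the lower ratio was -0.011.

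Averaged over each side, limb i4i5ZRS stayed close to wild type limb. Desert contact was 1.42 in limb i4i5ZRS and 1.44 in wild type limb (log2 ratio -0.02, -0.06 to 0.02), with 29 of 69 bins higher. From 410 to 500 kb limb i4i5ZRS had 1.64 and wild type limb 1.83 (log2 ratio -0.16, -0.27 to -0.06), with 2 of 10 bins higher. This was the only 1 of 7 desert stretches whose interval left out 0. Lower contact was 0.742 in both maps (log2 ratio 0.0014, -0.05 to 0.05), with 51 of 97 bins higher. In the G4 limbs it was 0.799 in limb ZRSreg and 0.795 in limb Lmbr1Δprom. The block at 250 to 360 kb had 1.28 in limb i4i5ZRS and 1.32 in wild type limb, although its crest at 300 kb was 2.35 in limb i4i5ZRS and 1.90 in wild type limb. The log2 ratio of this block was -0.37 (-0.46 to -0.27) over limb ZRSreg and 0.03 (-0.06 to 0.13) over limb Lmbr1Δprom. From 550 to 570 kb contact was 3.73 in limb i4i5ZRS and 3.16 in wild type limb, a log2 ratio of 0.24 (0.09 to 0.38). Against the G4 limbs the ratio there was 0.07 (-0.08 to 0.22) over limb ZRSreg and 0.11 (-0.04 to 0.26) over limb Lmbr1Δprom, so it did not go beyond counting error within the strain. Past 1.5-fold, 0 desert bins were higher and 1 lower, against 4.43% and 2.93%, and 3 lower-side bins were higher and 8 lower, against 7.39% and 4.8%. The difference from the desert ratio of limb i4i5 was not tested.

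In midbrain, i4i5ZRS was set against wild type midbrain. Desert contact was 1.67 in midbrain i4i5ZRS and 1.62 in wild type midbrain (log2 ratio 0.05, 0.01 to 0.09), with 33 of 69 bins higher, and without balancing the ratio was -0.035. The bins from 550 to 570 kb had 3.92 in midbrain i4i5ZRS and 3.47 in wild type midbrain. Lower contact was 0.659 in midbrain i4i5ZRS and 0.726 in wild type midbrain (log2 ratio -0.14, -0.19 to -0.09), with 36 of 97 bins higher. The block at 250 to 360 kb, already low in this tissue, was 0.800 in midbrain i4i5ZRS and 0.945 in wild type midbrain (log2 ratio -0.24, -0.36 to -0.12). The drop was not confined to the hump. From 370 to 600 kb contact was 0.675 in midbrain i4i5ZRS and 0.801 in wild type midbrain (log2 ratio -0.25, -0.38 to -0.12). In the stretch from 310 to 400 kb the log2 ratio was -0.08 (-0.23 to 0.06). At 260 kb the values were 0.660 in midbrain i4i5ZRS and 1.04 in wild type midbrain. Past 1.5-fold, 1 desert bin was higher and 1 lower, against 5.49% and 4.44%, and 2 lower-side bins were higher and 10 lower, against 7.73% and 5.88%. Strain and genotype cannot be told apart here either. For the same mutation, midbrain over limb had a log2 ratio of -0.67 (-0.79 to -0.56) at the hump, with 0.800 in midbrain i4i5ZRS and 1.28 in limb i4i5ZRS, both G4.

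**Figure D4:**
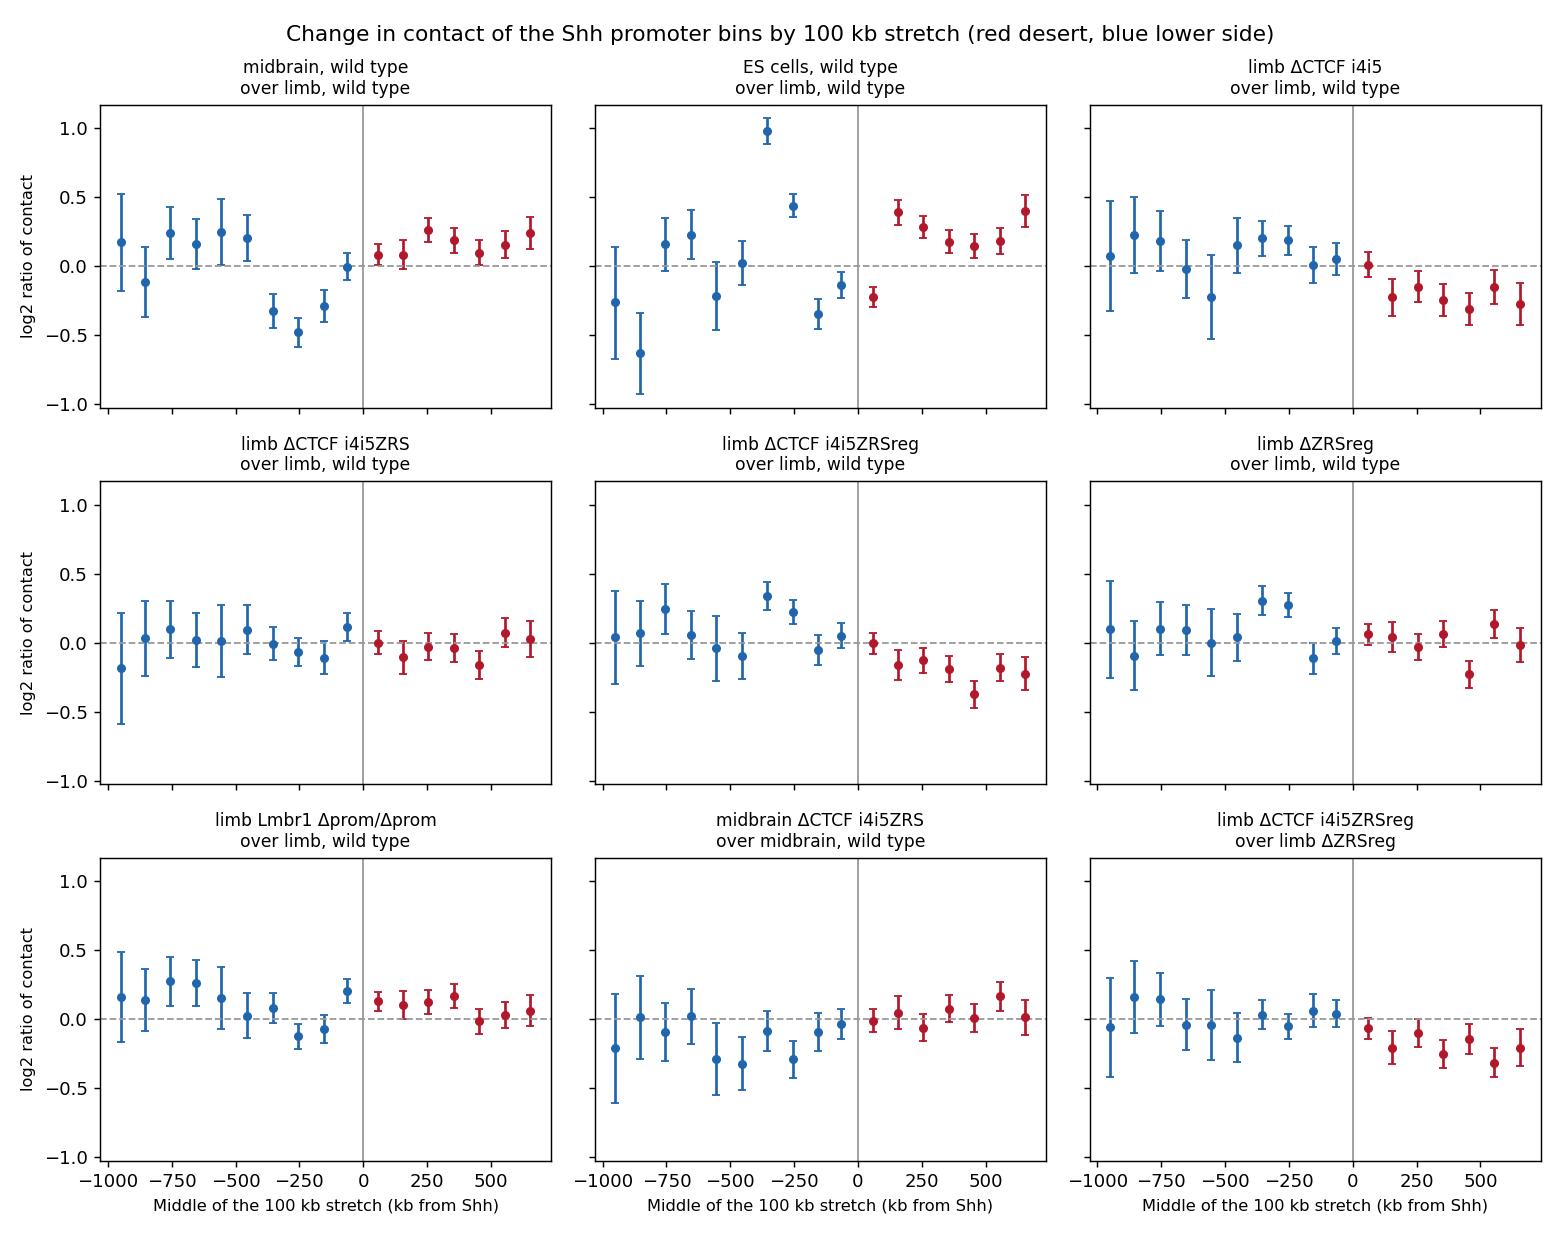
Log2 ratio of contact of the Shh promoter bins (vertical axis) in stretches of 100 kb against distance from the promoter in kb (horizontal axis), with 95% counting intervals, for the 9 comparisons, desert in red and lower side in blue. The ES cell panel rises to 0.98 at 310 to 400 kb below, the midbrain panel dips to -0.48 at 210 to 300 kb below, and limb i4i5 and limb i4i5ZRSreg over wild type limb lie below 0 in the 6 desert stretches from 110 kb outward.

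Both viewpoint bins met the desert, but unevenly. The upper viewpoint bin, which holds most of the promoter interval, had more desert contact than the lower viewpoint bin in all 9 maps, with log2 ratios from 0.11 in limb ZRSreg to 0.48 in ES cells. On the lower side the bins were near level outside ES cells, with log2 ratios of -0.07 to 0.08. In ES cells the upper viewpoint bin had 1.97 with the desert and 0.754 with the lower side, and the lower viewpoint bin had 1.41 with the desert and 0.951 with the lower side. At 570 kb the ES cell values were 6.02 from the upper viewpoint bin and 2.99 from the lower viewpoint bin, and at 300 kb below they were 4.24 and 5.99. With the upper viewpoint bin alone, the lower-side ratio of ES cells over wild type limb was -0.013.

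Among 120 other pairs of neighbouring bins at least 100 kb away, 3 had a balance of upper over lower contact (20 to 700 kb above, 30 to 700 kb below) that followed that of Shh most closely over the 9 maps. They start at 29020001, 29010001 and 29030001, 240, 230 and 250 kb inside the desert, with Pearson r of 0.968, 0.964 and 0.945 over 9 maps. The first overlaps each of the other 2, which adjoin. All 3 lie among the partners of Shh and share every library with it. The range of the balance at the first was 0.76 in limb i4i5ZRSreg to 0.99 in midbrain i4i5ZRS, narrower than the range at Shh over the same separations, 0.54 in limb i4i5ZRSreg to 1.32 in midbrain i4i5ZRS.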

How the data were processed

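Capture Hi-C libraries were made from limb buds, midbrain and ES cells, with DpnII digestion per the labels' protocols. Tools listed in the submitters' processing notes are SAMtools, Juicer, Bowtie2 2.3.4.1 and cutadapt 1.15, and the build is mm9. How duplicate pairs were handled is not stated there. Each deposited map holds a balanced signal between 10 kb bins. Per the labels, the authors merged the samples of a group and applied KR balancing. Pairs not listed were taken as 0.

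Observed over expected is signal over the mean at the same separation in the map, and contact is the mean over both promoter bins (Python 3.11.15, NumPy 2.4.6, SciPy 1.17.1). Balanced values are whole counts times 2 bin factors. Counts were recovered, 100% of them within 0.01 of whole, and the recovery was checked on simulated maps. No count test was run. Intervals (95%) are exact Poisson intervals or, for ratios, exact binomial intervals of these counts, summed over bins and scaled to the mean or ratio given. No molecular identifiers are described, so read pairs may repeat a molecule and intervals cover counting error only. A bin was counted as changed past 1.5-fold, and the percentages beside such counts are over all pairs of neighbouring bins of the map at the same separations.

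Bins named were taken from lists. These held, per map and side, the 3 highest, and, per comparison and side, the 2 highest and 2 lowest in ratio with 20 or more contacts in each map. All listed bins lay at 50 kb or more and 30 kb apart, and not all of them are given in the text. Other bins, stretches and blocks were chosen after their values were seen. The members, comparisons and lists were chosen with earlier results of these data known. Alternatives tried are described in the closing part. The promoter sequence of Shh was not used here.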

Additional observations from a re-analysis of the deposited data

How the results depend on the processing

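No paired analysis was possible because the samples of a group were merged into 1 map, so no replicate could be left out either. Over the alternatives, 48 of 57 desert ratios and 44 of 58 lower-side ratios kept their sign. Of the others, 6 and 9 belong to ratios whose interval held 0: limb i4i5ZRS (desert -0.10 to 0.010, lower side -0.12 to 0.012), limb ZRSreg (desert -0.17 to 0.0055) and i4i5ZRSreg over ZRSreg (lower side -0.057 to 0.14). Ratios whose interval left out 0 turned in these cases, with 2 at 550 to 570 kb. Scaled to the promoter's total, ES cells over wild type limb had -0.020 for the desert and -0.11 at 550 to 570 kb, and limb Lmbr1Δprom had -0.011 on the lower side. From counts without balancing, limb ZRSreg had -0.047 on the lower side and -0.037 at 550 to 570 kb, limb Lmbr1Δprom -0.0046 in the desert and midbrain i4i5ZRS -0.035 in the desert. For the lower side of ES cells the upper viewpoint bin alone gave -0.013, and leaving out the 12 bins of the hump, chosen after seeing the data, gave -0.029. For the lower side of limb i4i5 the G4 limb maps gave -0.0026. The cause was not tested. Some desert ratios kept their sign in every alternative but varied in size. They ran from -0.29 to -0.10 for limb i4i5 over wild type limb and from -0.26 to -0.11 for limb i4i5ZRSreg over wild type limb. For i4i5ZRSreg over ZRSreg the range was -0.26 to -0.074. Without scaling by separation the balance was 0.27 in limb i4i5, 0.23 in limb i4i5ZRSreg, 0.39 in limb ZRSreg, 0.45 in limb i4i5ZRS, 0.51 in limb Lmbr1Δprom, 0.93 in midbrain i4i5ZRS, 0.39 in ES cells, 0.77 in wild type midbrain and 0.48 in wild type limb, and with the upper viewpoint bin alone it was 1.38 in ES cells. Counts of bins past 1.5-fold were the least stable result, with 25 of 48 within 1.5 times the count given first here. Thinned to the shallowest map, they were 27 (10 unthinned) for midbrain, 29 (12) for limb i4i5ZRS, 24 (6) for limb i4i5ZRSreg, 18 (5) for limb ZRSreg, 26 (6) for limb Lmbr1Δprom, 22 (14) for midbrain i4i5ZRS and 25 (14) for i4i5ZRSreg over ZRSreg. From the upper viewpoint bin alone they were 23 for midbrain, 57 (31) for ES cells, 20 for limb i4i5ZRS, 20 for limb i4i5ZRSreg, 18 for limb ZRSreg, 15 for limb Lmbr1Δprom and 23 for midbrain i4i5ZRS. Asking also for an interval that leaves out equality gave 4 (16) for limb i4i5, 6 for limb i4i5ZRS, 2 for limb ZRSreg, 3 for limb Lmbr1Δprom, 6 for midbrain i4i5ZRS and 5 for i4i5ZRSreg over ZRSreg. A median in place of the mean expected value gave 10 for limb i4i5ZRSreg and 9 for limb ZRSreg, and counts without balancing gave 12 for limb ZRSreg. Without balancing, the split of higher and lower bins was 7 and 7 for midbrain (8 and 2 with it), 9 and 25 for ES cells (15 and 16), 1 and 7 for limb i4i5ZRSreg (3 and 3), 2 and 10 for limb ZRSreg (2 and 3), 4 and 3 for limb Lmbr1Δprom (6 and 0) and 8 and 2 for i4i5ZRSreg over ZRSreg (7 and 7). With the median it was 6 and 15 for limb i4i5 (8 and 8), 1 and 9 for limb i4i5ZRS (3 and 9), 2 and 8 for limb i4i5ZRSreg, 5 and 4 for limb ZRSreg, 7 and 1 for limb Lmbr1Δprom and 3 and 11 for i4i5ZRSreg over ZRSreg. Depth limits single far lower bins most, where a map can hold 1 contact.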
